A study of Rattus norvegicus with 12 samples.

Results

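Adipoq, Fabp4, Lpl and Lep are 4 genes that mark fat cells, and their RNA was followed here in fibro-adipogenic progenitors (FAPs) of the rat soleus. They were chosen by name, as 4 of the 32622 rat Ensembl identifiers in the count table: ENSRNOG00000001821 (Adipoq), ENSRNOG00000010805 (Fabp4), ENSRNOG00000012181 (Lpl) and ENSRNOG00000005924 (Lep). The symbols come with that choice. The count table gives identifiers alone, and 0 of its identifiers matched the RefSeq gene table used here, so the pairing was not tested. All 4 genes passed the filter on low counts, among 13215 genes tested.

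FAPs are mesenchymal cells that lie between muscle fibres and can become fat cells or fibroblasts. They were grown as primary cultures in 6 groups of 2 libraries: cells of control rats (C), of rats after 7 days of hindlimb suspension (HS7) and of rats after 14 days of it (HS14), each at day 3 of adipogenic induction and at day 0 before it. Hindlimb suspension lifts the hind legs off the floor, so that the soleus carries no load. The induction medium added insulin, dexamethasone and 3-isobutyl-1-methylxanthine to the serum-containing culture medium, and every day 3 group received it. No group was kept for 3 days without induction, so a difference between day 3 and day 0 includes the added time in culture. The labels used here give no strain, sex or age, and do not say whether the 2 replicates of a group were separate animals or cultures. Each p-value below thus reflects the scatter of these libraries alone, and that scatter may be only technical.

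The 4 genes stand at different places in the working of a fat cell. Adipoq encodes adiponectin and Lep encodes leptin, hormones that fat tissue releases into the blood. Adiponectin acts on the liver and muscle through the receptors AdipoR1 and AdipoR2, and leptin acts on the hypothalamus to lower food intake. Lpl encodes lipoprotein lipase, which is secreted and frees fatty acids from circulating triglyceride. Fabp4 encodes a cytosolic carrier of fatty acids. In adipogenesis C/EBP factors and PPARγ act in sequence, and Adipoq, Fabp4 and Lpl are textbook targets of PPARγ, while leptin is usually linked to mature fat cells. Fabp4 and Lpl are also made by macrophages, and Fabp4 by endothelial cells. Markers of those cells could not be looked up without symbols, so their part in the values was not tested.

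The stretches before the transcription starts are shown for the members that had a sequence entry. RefSeq sequences (build GRCr8) were matched by symbol for 2 of the 4 genes, Adipoq and Lep; Fabp4 and Lpl had no entry. Each line gives 250 bases up to the start, 5′ to 3′ on the gene's strand, with motif matches in capitals. Adipoq lies at chr11:91240170-91240419 on the minus strand, and Lep at chr4:58626288-58626537 on the plus strand.
Adipoq: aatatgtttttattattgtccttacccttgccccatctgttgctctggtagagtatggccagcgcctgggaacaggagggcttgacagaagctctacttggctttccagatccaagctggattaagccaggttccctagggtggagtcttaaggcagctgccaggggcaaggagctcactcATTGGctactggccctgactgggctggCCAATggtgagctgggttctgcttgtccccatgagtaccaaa
Lep: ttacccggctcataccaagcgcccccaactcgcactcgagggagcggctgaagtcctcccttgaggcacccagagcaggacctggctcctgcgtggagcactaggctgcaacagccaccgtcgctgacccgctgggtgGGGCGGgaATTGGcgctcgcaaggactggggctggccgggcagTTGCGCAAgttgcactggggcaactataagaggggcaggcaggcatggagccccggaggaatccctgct

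In Lep the capitals mark a GC box (GGGCGG) beginning 112 bases before the start, a CCAAT box on the opposite strand (read as ATTGG) at 104 bases and the palindrome TTGCGCAA, the core of the C/EBP consensus, at 69 bases. In Adipoq they mark 2 CCAAT boxes, on the opposite strand at 69 bases and on the gene's strand at 42 bases. Both strands were searched, and the marked matches do not overlap. Of 33469 rat promoter windows of this length, 0.14% hold TTGCGCAA, 34% hold CCAAT and 30.5% hold GGGCGG. Neither window held AGGTCA (the half-site of PPAR elements, in 14.1% of windows), AGAACA (the half-site of glucocorticoid elements, 17.5%), TCACNCCAC (a sterol element, 0.974%), TATAAA (12.9%) or CACGTG (an E-box, 5.59%). A match describes the letters, and no match says nothing about sites outside this window. The GC content was 53.2% in the Adipoq window and 66% in the Lep window.

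The total per library lay between 15105521 and 21484885 counts, and r over genes between the replicates of a group was at least 0.988. Among small counts, up to 20, even numbers made up 68.3% to 70.6% in the 12 libraries, so reads may have been counted in pairs, and the bounds below are also given on halved counts. Levels are counts per 1000000 (CPM) on libraries scaled by TMM, edgeR's trimmed mean of M-values, which leaves a median log2 difference of at most 0.026 over all genes in any comparison. They are not divided by gene length, so levels are compared between libraries and not between genes. These are bulk cultures: fewer cells expressing a gene and less RNA per cell cannot be told apart. HS7 and HS14 are compared with the same control libraries.

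In control cells induction came with a steep rise of Adipoq and Fabp4, a smaller rise of Lpl and a fall of Lep. Adipoq had 226 and 232 CPM at day 3, against 0.530 and 0.999 CPM at day 0, where the libraries held 10 and 18 reads. The summed reads, 7377 against 28, correspond to a 302-fold rise (exact 95% counting interval 209 to 454), or 180 to 552 on halved counts (adjusted p = 5.40e-31 in the fit). The adiponectin gene was thus close to silent before induction in control cells, and its fitted change was the 18th largest rise among the 13215 genes. Fabp4 had 1505 and 1558 CPM at day 3 and 16.5 and 17.3 CPM at day 0, a 90.5-fold rise of the mean (log2 difference 6.50, SE 0.079, adjusted p = 2.15e-38). Lpl had 2829 and 2832 CPM at day 3 and 343 and 370 CPM at day 0, a 7.94-fold rise (log2 difference 2.99, SE 0.050, adjusted p = 3.76e-34). Unlike Adipoq, Lpl was thus already well expressed before induction, and at day 3 it took 0.287% of all counts in both libraries. Lep had 71.2 and 70.8 CPM at day 3, against 130 and 133 CPM at day 0, so that its day 3 mean was 54.1% of the day 0 mean (log2 difference -0.89, SE 0.072, adjusted p = 3.26e-13). So 3 of the 4 genes rose, where 25.8% of all genes tested did, and 1 fell, as 26.8% did. Lep therefore went against the label of an adipocyte marker in the direction of its change.

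**Figure D1:**
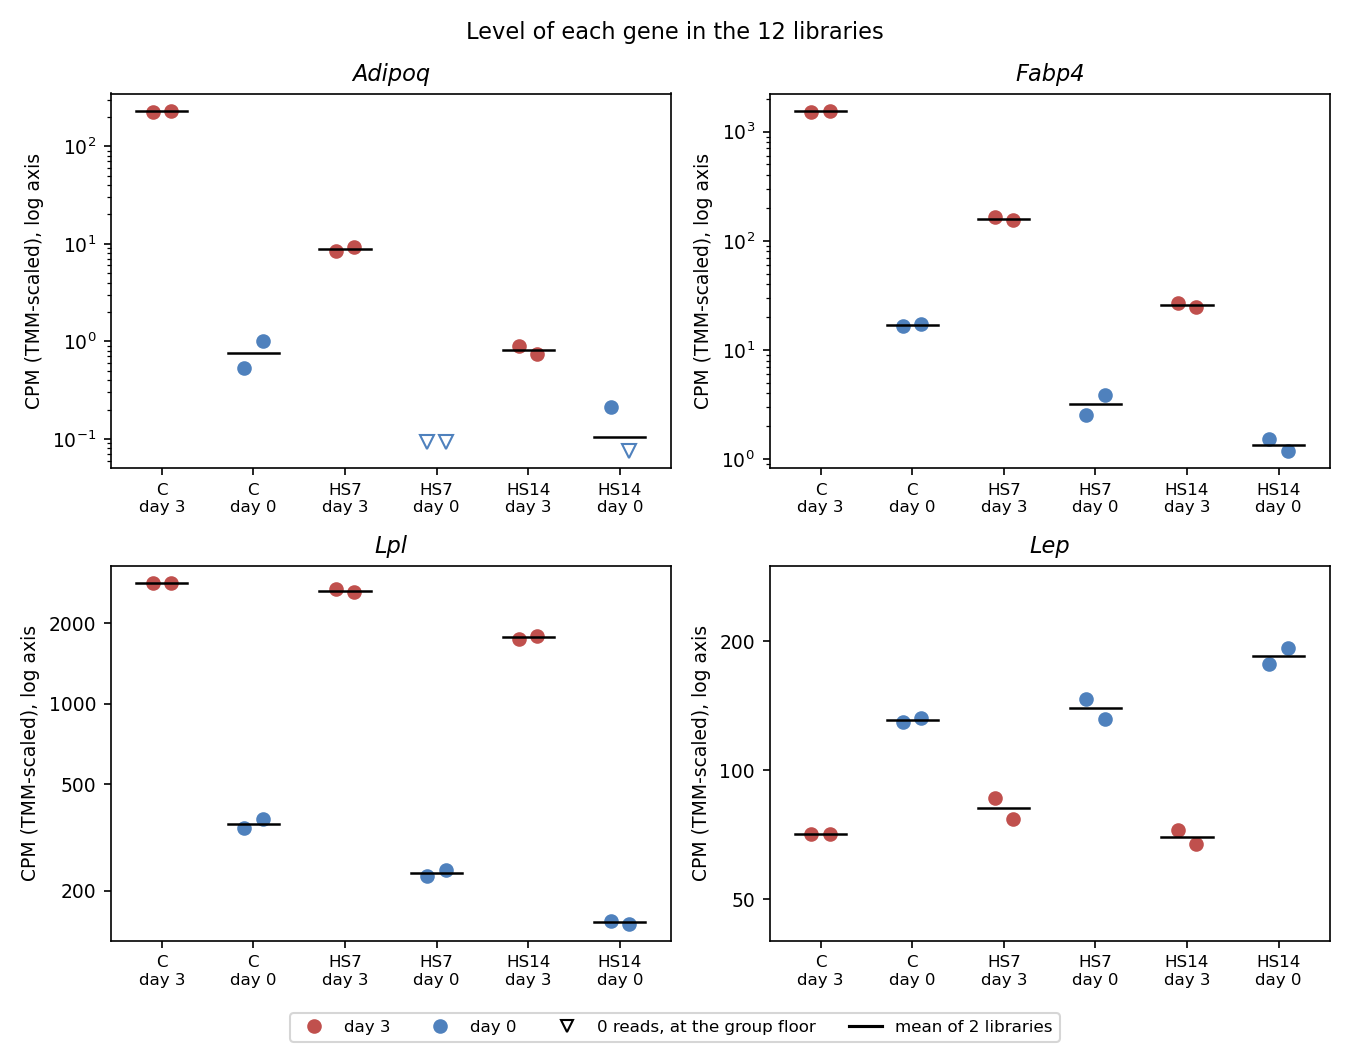
Level of each gene in CPM (log axis, TMM-scaled) in the 12 libraries. Points are libraries and lines are means of 2. Open triangles are libraries with 0 reads, drawn at 3 counts over the group. For the HS14 library at day 0 this is a plotting position and not a limit. Adipoq and Fabp4 drop stepwise over C, HS7 and HS14 at day 3 (229, 8.88 and 0.825 CPM for Adipoq), Lpl stays at 1747 CPM or more there, and Lep is lower at day 3 than at day 0 in all 3 kinds of cells.

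The direction of every change was the same in cells of unloaded rats, but the size of some changes was not. After 7 days of unloading Adipoq had 8.41 and 9.36 CPM at day 3, with 156 reads in each library. At day 0 it had 0 reads in both HS7 libraries, which allows up to 0.0920 CPM (3 counts over the group). With the day 3 reads taken as exact, its rise was therefore at least 96.2-fold, or at least 48.1-fold on halved counts (adjusted p = 1.50e-17). Adipoq was thus switched on in HS7 cells too, to a level well short of that in control cells. Fabp4 had 164 and 154 CPM at day 3 and 2.55 and 3.85 CPM at day 0, a 49.8-fold rise (log2 difference 5.64, SE 0.10, adjusted p = 6.86e-33). Lpl had 2694 and 2617 CPM at day 3 and 228 and 238 CPM at day 0, an 11.4-fold rise (log2 difference 3.51, SE 0.051, adjusted p = 8.62e-36). The fatty acid carrier and the lipase were thus both higher in each day 3 library than in each day 0 library. Lep had 86.1 and 76.9 CPM at day 3 and 147 and 132 CPM at day 0, which leaves 58.5% of its day 0 mean (log2 difference -0.77, SE 0.071, adjusted p = 8.52e-12). Of all genes tested, 24.8% rose and 26.9% fell in these cells, against 3 and 1 of the 4.

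After 14 days of unloading Adipoq stayed below 1 CPM even after induction. It had 0.903 and 0.746 CPM at day 3, from 16 and 14 reads, and 0.211 and 0 CPM at day 0, from 4 and 0 reads. The ratio of the summed reads was 8.24 (exact 95% counting interval 2.90 to 32.2, or 1.92 to 74.2 on halved counts; adjusted p = 0.000123 in the fit). The fitted log2 rise of 2.96 became 1.93 without the HS14 replicate 2 at day 0, and 6.88 without replicate 1, the library that holds all 4 reads. That last fitted value is set against 0 reads and is no bound. Against 3 counts in the remaining library, with the day 3 reads taken as exact, the rise was at least 5.79-fold (2.89-fold on halved counts). Over all alternatives tried its adjusted p was at most 0.0109. Fabp4 had 26.9 and 24.5 CPM at day 3 and 1.53 and 1.18 CPM at day 0, an 18.9-fold rise (log2 difference 4.24, SE 0.14, adjusted p = 1.07e-24). The Fabp4 level of induced HS14 cells lay above the 16.5 and 17.3 CPM of control cells that had not been induced, without overlap; that pair of groups was not compared by a test. Lpl had 1747 and 1800 CPM at day 3 and 154 and 150.3 CPM at day 0, an 11.6-fold rise (log2 difference 3.54, SE 0.052, adjusted p = 5.91e-36). Lep had 72.4 and 67.4 CPM at day 3 and 177 and 193 CPM at day 0, and 37.8% of the day 0 mean was left (log2 difference -1.40, SE 0.070, adjusted p = 2.70e-19). Of all genes, 27.7% rose and 28.1% fell.

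**Figure D2:**
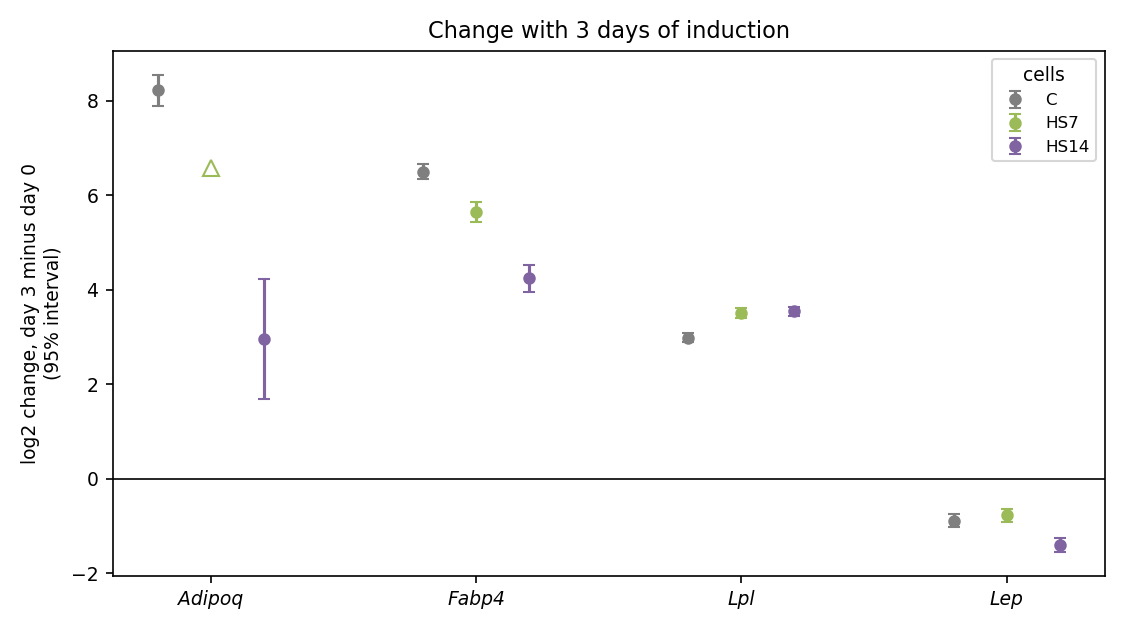
Log2 change from day 0 to day 3 (vertical axis) of each gene in C, HS7 and HS14 cells. Bars are 95% intervals from the edgeR fit. The open triangle is Adipoq in HS7 cells, which had 0 reads at day 0, set against 3 counts over that group. The rise of Fabp4 steps down over C, HS7 and HS14 (6.50, 5.64 and 4.24), that of Lpl over the same cells is 2.99, 3.51 and 3.54, and Lep lies below 0 in all 3.

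In induced cells the adiponectin and Fabp4 genes were far lower after unloading, while Lpl did not pass the test after 7 days and was less than 2-fold lower after 14 days, and Lep passed the test after neither. Induced HS7 cells held 3.88% of the Adipoq level of induced control cells (8.88 ± 0.676 CPM against 229 ± 4.11 CPM; SD, n = 2 each; log2 difference -4.69, SE 0.12, adjusted p = 2.82e-27). They held 10.4% of the Fabp4 level (159 ± 7.06 CPM against 1532 ± 37.6 CPM; log2 difference -3.26, SE 0.063, adjusted p = 2.80e-31). In neither gene did the libraries of the groups come near each other. Lpl stood at 93.8% of the control level in HS7 cells (2656 ± 54.1 CPM against 2831 ± 1.98 CPM), a difference that did not pass the test (adjusted p = 0.205; 95% interval of the fold 0.880 to 1.00). Lep stood at 115% in HS7 cells (81.5 ± 6.49 CPM against 71.0 ± 0.238 CPM; 95% interval of the fold 1.04 to 1.27), with an adjusted p of 0.0643. That p fell to 0.0359 without the HS7 replicate 2 at day 3, to 0.0353 without the HS7 replicate 1 at day 0 and to 0.0349 without the HS7 replicate 2 at day 0, and it reached 0.508 at most over all alternatives. So 2 of the 4 genes were lower in HS7 cells, where 7.43% of all genes were.

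After 14 days of unloading the same drop was deeper. Induced HS14 cells held 0.360% of the Adipoq level of induced control cells, a 277-fold lower mean (0.825 ± 0.111 CPM against 229 ± 4.11 CPM; log2 difference -8.11, SE 0.16, adjusted p = 2.42e-30). They held 1.68% of the Fabp4 level (25.7 ± 1.65 CPM against 1532 ± 37.6 CPM; log2 difference -5.90, SE 0.075, adjusted p = 1.92e-37). These were the 12th and the 37th largest fitted falls of 13215 genes. Lpl kept 62.6% of the control level (1773 ± 36.8 CPM against 2831 ± 1.98 CPM; log2 difference -0.67, SE 0.046, adjusted p = 1.18e-14). The lipase gene was thus lower by less than 2-fold in the same libraries in which adiponectin was nearly absent. Lep stood at 98.4% (69.9 ± 3.57 CPM against 71.0 ± 0.238 CPM), with libraries that overlapped (adjusted p = 0.854; 95% interval of the fold 0.887 to 1.09). So 3 of the 4 genes were lower in HS14 cells, where 15.3% of all genes were.

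**Figure D3:**
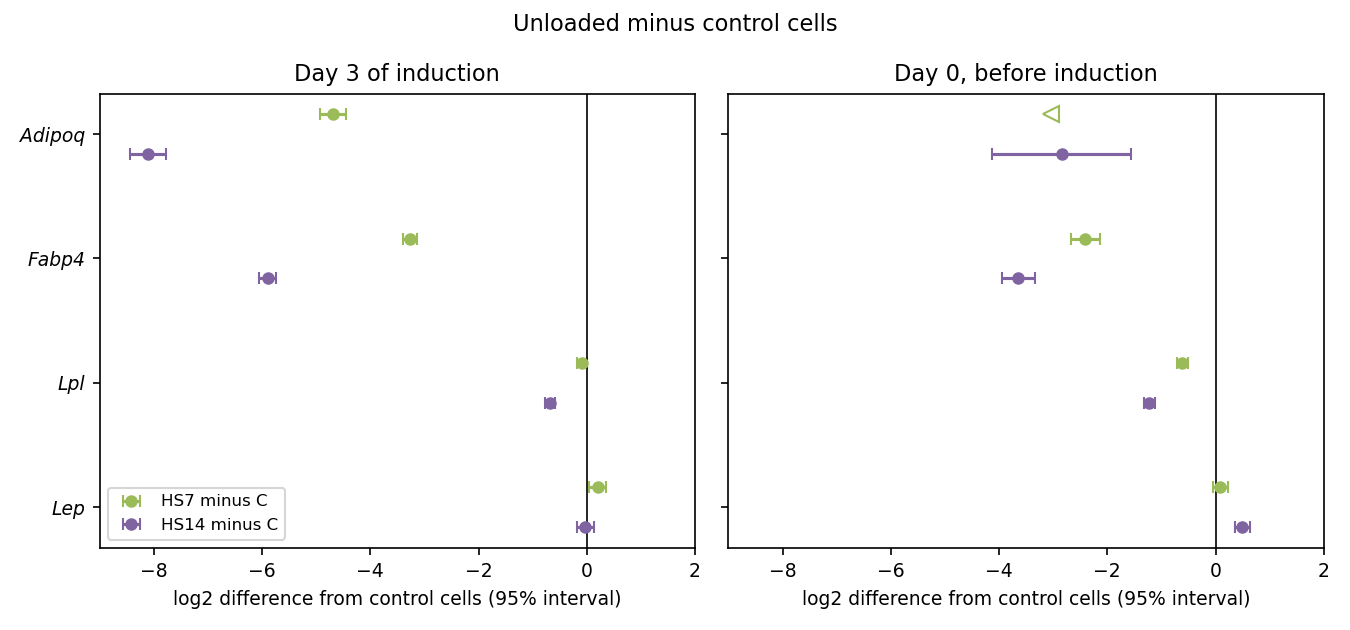
Log2 difference from control cells (horizontal axis) of HS7 and HS14 cells at day 3 (left) and at day 0 (right). Bars are 95% intervals from the edgeR fit. The open triangle is Adipoq in HS7 cells at day 0, which had 0 reads, set at 3 counts over that group. Adipoq and Fabp4 lie between -8.11 and -3.26 at day 3, Lpl at -0.09 and -0.67, and Lep near 0.

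The fall of Adipoq was larger than that of Fabp4 in the same libraries, so that the ratio of these genes shifted as well. Induced HS7 libraries held 5.11 and 6.06 Adipoq reads per 100 Fabp4 reads, and induced HS14 libraries 3.36 and 3.04, against 15.0 and 14.9 in induced control libraries. The 3 groups did not overlap in this ratio, and it does not depend on how libraries are scaled. The number of Lpl reads per Fabp4 read moved the other way: 16.4 and 16.9 in induced HS7 libraries and 65.1 and 73.4 in induced HS14 libraries, against 1.88 and 1.82 in induced control libraries. At day 0 control libraries held 20.7 and 21.4 Lpl reads per Fabp4 read, HS7 libraries 89.4 and 61.9, and HS14 libraries 101 and 127. Control libraries at day 0 held 3.21 and 5.77 Adipoq reads per 100 Fabp4 reads, from 10 and 18 Adipoq reads. The day 0 value was 13.8 in HS14 replicate 1, from 4 Adipoq reads, and the remaining day 0 libraries had no Adipoq reads. The ratios were not tested.

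**Figure D4:**
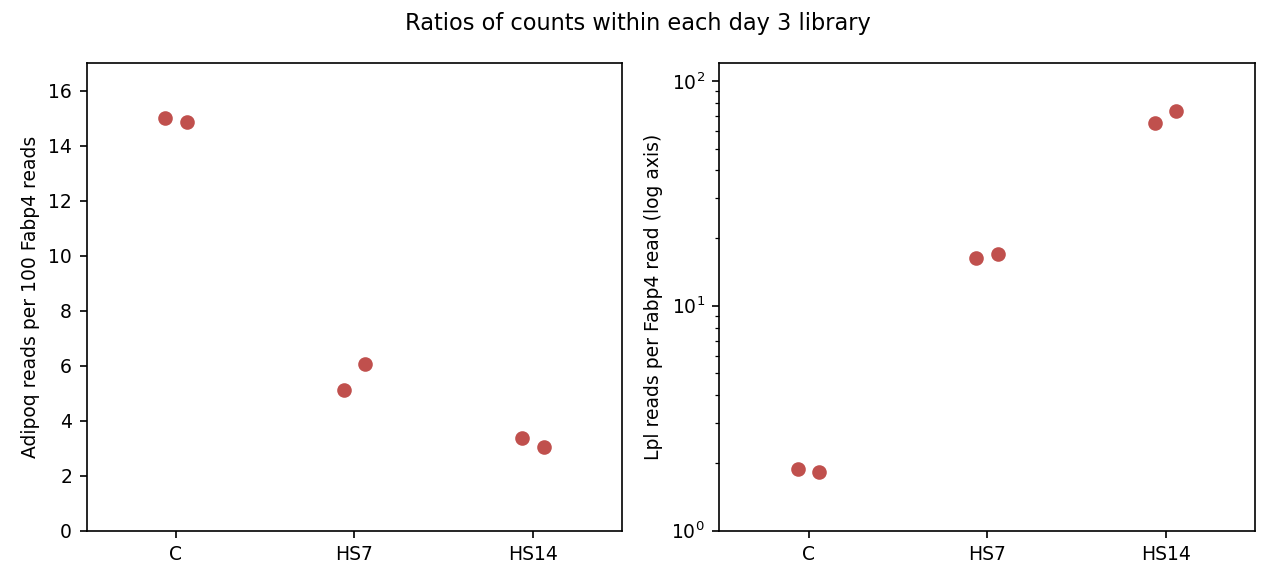
Ratios of read counts within each day 3 library, with 1 point per library in C, HS7 and HS14 cells: Adipoq reads per 100 Fabp4 reads (left, linear axis from 0) and Lpl reads per Fabp4 read (right, log axis). The left ratio is highest in control cells (15.0 and 14.9) and the right ratio is lowest there (1.88 and 1.82).

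Before induction Adipoq, Fabp4 and Lpl were already lower in cells of unloaded rats. At day 0 HS7 cells held 18.9% of the Fabp4 level of control cells (3.20 ± 0.923 CPM against 16.9 ± 0.541 CPM; log2 difference -2.40, SE 0.14, adjusted p = 1.36e-16). They held 65.4% of the Lpl level (233 ± 7.53 CPM against 356 ± 19.1 CPM; log2 difference -0.61, SE 0.048, adjusted p = 1.28e-12). Adipoq had 0 reads in HS7 cells against 28 in control cells (adjusted p = 3.82e-05 in the fit). With those 28 reads taken as exact, it was at least 8.25-fold lower in HS7 cells, or 4.12-fold on halved counts. The low Fabp4 of HS7 cells was thus present before the medium was changed. Lpl was also lower then, but its difference did not pass the test at day 3. Lep stood at 106% of control in HS7 cells (139 ± 10.3 CPM against 131 ± 2.05 CPM), with libraries that overlapped (adjusted p = 0.403; 95% interval of the fold 0.965 to 1.17). Of the 4 genes 3 were lower, against 11.3% of all genes.

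After 14 days of unloading, day 0 cells held 8.02% of the Fabp4 level of control cells (1.36 ± 0.245 CPM against 16.9 ± 0.541 CPM; log2 difference -3.64, SE 0.15, adjusted p = 1.54e-20) and 42.8% of the Lpl level (152 ± 2.96 CPM against 356 ± 19.1 CPM; log2 difference -1.23, SE 0.049, adjusted p = 3.50e-21). Adipoq had 4 reads in HS14 cells against 28 in control cells, where the level was 7.60-fold higher (exact 95% counting interval 2.66 to 29.8, or 1.75 to 68.9 on halved counts; adjusted p = 0.000998 in the fit). That call was lost without the HS14 replicate 2 at day 0 (log2 difference -1.81) and kept without replicate 1. There the fitted -6.75 is set against 0 reads. With the control reads taken as exact, HS14 cells were then at least 5.34-fold lower (2.67-fold on halved counts). Lep went the opposite way and was 1.41-fold higher in HS14 cells (185 ± 11.1 CPM against 131 ± 2.05 CPM; log2 difference 0.50, SE 0.067, adjusted p = 3.99e-07). So 3 of the 4 genes were lower, where 8.89% of all genes were, and 1 was higher, where 7.85% were. The leptin gene thus differed from control before induction in HS14 cells, but not detectably after it.

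The change with induction was itself compared between treatments, as an interaction term of the same fit. Fabp4 rose less in unloaded cells, with a log2 difference of the responses of -0.86 for HS7 minus control (SE 0.17, adjusted p = 0.000497) and -2.26 for HS14 minus control (SE 0.25, adjusted p = 4.89e-09). The HS7 value rests in part on 1 library: without the HS7 replicate 2 at day 0 it was -0.54, with an adjusted p of 0.148, the highest over all alternatives. Lpl rose more in unloaded cells than in control cells, by 0.52 for HS7 (SE 0.066, adjusted p = 3.00e-07) and 0.55 for HS14 (SE 0.067, adjusted p = 4.37e-08). Lpl thus began lower and rose more, and its day 3 levels lay closer to control than its day 0 levels did. Lep fell more in HS14 cells than in control cells (-0.52, SE 0.10, adjusted p = 0.000144), and the fall in HS7 cells did not differ detectably from that in control cells (0.11, 95% interval -0.091 to 0.32, adjusted p = 0.568).

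The response of Adipoq could be compared less well, because of its few reads at day 0. For HS14 minus control the log2 difference was -5.27 (SE 1.23, adjusted p = 0.00148), and without the HS14 replicate 1 at day 0, which holds the 4 reads, it was -1.35 with an adjusted p of 0.872, the highest over all alternatives. For HS7 minus control the interaction did not pass (adjusted p = 0.485), and the bound of at least 96.2-fold in HS7 cells does not separate it from the 302-fold rise in control cells. Of the 4 genes 1 had a more negative and 1 a more positive response in HS7 cells, where 5.68% and 4.70% of all genes had. In HS14 cells 3 had a more negative and 1 a more positive response, where 10.9% and 11.0% of all genes had.

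Between the unloaded groups, the longer unloading came with the lower levels of Fabp4 and Lpl at both days. At day 3 HS14 cells held 9.28% of the Adipoq level of HS7 cells (log2 difference -3.42, SE 0.24, adjusted p = 9.09e-14) and 16.1% of the Fabp4 level (-2.63, SE 0.073, adjusted p = 5.65e-26). They held 66.8% of the Lpl level (-0.58, SE 0.046, adjusted p = 1.96e-12) and 85.8% of the Lep level (-0.22, SE 0.073, adjusted p = 0.0233). All 4 genes were therefore lower in HS14 than in HS7 cells at day 3, where 11.0% of all genes were. The call of Lep was lost without the HS7 replicate 1 (-0.13, adjusted p = 0.390, the highest over all alternatives), the HS14 replicate 1 (-0.26, adjusted p = 0.0570) or the HS14 replicate 2 (-0.16, adjusted p = 0.285), all at day 3.

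At day 0 HS14 cells held 42.4% of the Fabp4 level of HS7 cells (log2 difference -1.24, SE 0.23, adjusted p = 0.000125) and 65.4% of the Lpl level (-0.61, SE 0.049, adjusted p = 5.36e-12), and Lep was 1.33-fold higher (0.41, SE 0.068, adjusted p = 3.00e-05). Adipoq, with 4 reads in HS14 cells and 0 in HS7 cells, could not be told apart at this depth (adjusted p = 0.193). So 2 of the 4 were lower, where 6.26% of all genes were, and 1 higher, where 5.47% were. The rise of Fabp4 with induction was smaller in HS14 than in HS7 cells (-1.40, SE 0.26, adjusted p = 0.000248), the fall of Lep was larger (-0.63, SE 0.099, adjusted p = 2.27e-05), and the rise of Lpl did not differ detectably (0.030, 95% interval -0.11 to 0.17, adjusted p = 0.855). The rise of Adipoq was also called smaller in HS14 cells (adjusted p = 0.00670, at least 96.2-fold in HS7 against 8.24-fold in HS14), but the adjusted p was 1.00 without the HS14 replicate 1 at day 0, which leaves 0 reads in both day 0 groups. So 3 of the 4 had a more negative response in HS14 than in HS7 cells, where 4.44% of all genes had.

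Fabp4 and Lpl put the 6 groups in the same order of level: C, HS7 and HS14 at day 3, then C, HS7 and HS14 at day 0. The libraries of neighbours in that order did not overlap in either gene, but Lpl in HS7 and control cells at day 3 did not differ past the threshold. For Adipoq the order was C and HS7 at day 3, HS14 at day 3, C at day 0, HS14 at day 0 and HS7 at day 0. Its HS14 libraries at day 3 lay within the range of the control libraries at day 0. Lep had the highest level in HS14 cells at day 0, followed by HS7 and control cells at day 0, whose libraries overlapped, and by HS7, control and HS14 cells at day 3. There the control libraries lay within the range of the HS14 libraries.

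The genes whose pattern was most like that of each member were ranked by Pearson's r of log2 CPM over the 12 libraries, among 10474 genes with at least 5 CPM in their highest group. The libraries of a group share a condition, so r describes the group pattern and has no test. The identifiers carry no symbols in the files. For Adipoq the closest was ENSRNOG00000022239 (r = 0.978), which averaged 143, 8.96 and 0.828 CPM in C, HS7 and HS14 cells at day 3 and 1.52, 0.306 and 0.0528 CPM at day 0. Fabp4 itself was the third closest to Adipoq (r = 0.974). For Fabp4 the closest was a gene not named here (r = 0.997), with 383, 27.8 and 2.82 CPM at day 3 and 1.51, 0.216 and 0 CPM at day 0; the next had r = 0.995, and ENSRNOG00000022239 was the third (r = 0.979). For Lpl the closest was ENSRNOG00000010997 (r = 0.996), with 738, 593 and 526 CPM at day 3 and 169, 115 and 92.4 CPM at day 0. That gene, like Lpl, kept most of its day 3 level after unloading. For Lep the closest was ENSRNOG00000010352 (r = 0.990), with 76.5, 83.2 and 79.4 CPM at day 3 and 115, 124 and 135 CPM at day 0.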

How the data were processed

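The authors deposited 1 table of raw counts per rat Ensembl gene for 12 libraries, whose column names match the labels. Per the submitters' processing notes the tools were STAR 2.7, featureCounts 1.6.4, FastQC 0.11.9 and DESeq2, with the build Rnor_6.0 and no roles stated; libraries were stranded mRNA with 51 bp reads, per the labels. Not given in the sources used here: the annotation release, the strand setting and how pairs and overlapping genes were counted. Here genes were kept by filterByExpr and scaled by TMM, and 1 quasi-likelihood fit of 6 group means (edgeR 4.0.16, R 4.3.3; 6 residual degrees of freedom) gave 9 two-sided comparisons and 3 interactions. The Benjamini-Hochberg threshold was 0.05 over 13215 genes within each, and every adjusted p comes from this fit unless an alternative is named. The fit shares information on spread across all genes, so its p-values and intervals rest on more than the 6 residual degrees of freedom. SE is the log2 difference over the square root of F. Counting intervals are exact binomial (95%), floors are 3 counts over a group, and both cover counting error only. A fold against a floor takes the reads of the other group as exact, so it is not a 95% bound on the fold. The fit was tested on simulated data. The simulation changed no gene near 0 reads and held no counts made in pairs, so it does not cover Adipoq at day 0. It changed few genes, by less than the rise of Fabp4 seen here, and gave every gene the same spread. Changes as large or as many as those found here were therefore not covered either. The 4 genes are named in every comparison, and the 3 most similar genes were ranked for each. Lists of pathway genes and cell type markers had been drawn up by symbol and were not run, because no table paired symbols with identifiers; the top 4 list members were therefore not named. The members and lists were chosen with earlier results of these data known. Replicates differed by more than the noise of single reads (chi-square per degree of freedom 2.69 to 7.36, on counts as deposited) and count as 2 libraries. Counting reads in pairs would also raise this value, which was not computed on halved counts. Alternatives were other scalings (DESeq2's size factors, the total count), filters, DESeq2 1.42.0, fits of the compared groups, a replicate block, halved counts and each library left out.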

Additional observations from a re-analysis of the deposited data

Results flagged for a closer look

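Each value here is one where the interaction test of edgeR called the changes with induction different between treatments; the values are log2 differences of the day 3 minus day 0 changes. Fabp4 had a smaller rise in HS7 than in control cells (-0.86), in HS14 than in control cells (-2.26) and in HS14 than in HS7 cells (-1.40). Lpl had a larger rise in HS7 than in control cells (0.52) and in HS14 than in control cells (0.55). Lep fell more in HS14 than in control cells (-0.52) and more in HS14 than in HS7 cells (-0.63). Adipoq had a smaller rise in HS14 than in control cells (-5.27), and its rise was called smaller in HS14 than in HS7 cells (adjusted p = 0.00670), but both Adipoq calls rest on 4 reads of 1 HS14 library at day 0. Groups of 2 libraries allow no check for a library that stands apart from its group.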

How the results depend on the processing

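The 4 genes in 12 comparisons gave 48 values, recomputed 957 times: 945 recomputed values kept their direction and their side of the threshold, and each of the other 12 came from leaving out 1 library. None of the other scalings, filters, tests or halved counts changed a call of the 4 genes. With 1 library left out, log2 differences ranged as follows. Adipoq ran from -6.75 to -1.81 in HS14 against control at day 0, and from -6.29 to -1.35 and from -8.34 to -3.41 in the response of HS14 minus control and HS14 minus HS7. Fabp4 ran from -1.13 to -0.54 in the response of HS7 minus control. Lep ran from 0.11 to 0.27 in HS7 against control at day 3, from -0.29 to -0.13 in HS14 against HS7 at day 3, and from -0.070 to 0.038 in HS14 against control at day 3, with a change of sign. Lpl ran from -0.0047 to 0.066 in the response of HS14 minus HS7, also with a change of sign; neither of these was called. The cause of these shifts was not tested, beyond the smaller number of libraries. The number of genes called between HS14 and HS7 ran from 862 to 1695 at day 0 (1550 with all libraries), from 1700 to 3351 at day 3 (2988) and from 646 to 1530 in the response (1134). The lowest came without HS14 replicate 1 (at day 3 for the response), and counts were more than 1.5 times lower also without HS14 replicate 2 at day 0 (887 at day 0, 737 in the response) and HS7 replicate 1 at day 3 (1848 at day 3, 672 in the response). A further 3 recomputations for Adipoq gave no value, because the gene failed the filter in a fit of the groups compared or had 0 reads in both groups.

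Scaling to the total count moved the median gene by -0.10 (HS14 against control) and -0.11 (HS14 against HS7) at day 3. The share of called genes that were higher was then 30.2% and 22.1%, against 51.2% and 51.2% with TMM. At day 0 it was 62.8% in HS7 against control (50.8% with TMM) and 20.6% in HS14 against HS7 (46.6%), and in the response of HS14 minus control 36.9% (50.2%). The labels number replicates without saying that a number marks a shared animal or day, and same-numbered libraries did not deviate together (r = -0.051 to 0.041 over 15 pairs of groups). With the replicate number as a block, 4005 genes were called in HS14 against control at day 3, against 4132 without it, and no call of the 4 genes changed. Depth limits Adipoq at day 0, where groups held 28 (control), 0 (HS7) and 4 (HS14) reads.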
